A study of Daphnia sinensis with 8 samples.

Results

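Males of *Daphnia sinensis* were compared with sexual females, the adult females that carry resting eggs. The comparison used the RNA libraries labelled male (M_1 and M_2) and sexual female (SF_1 and SF_2), which are 4 of the 8 libraries in the series. An M library came from a pool of about 60 males and an SF library from a pool of about 50 sexual females, and both are labelled as 2 to 3 weeks old. The other 4 libraries came from parthenogenetic females (PF, also 2 to 3 weeks old) and juvenile females (JF, taken within 12 h of birth). They entered the filter on low counts, the scaling between libraries and the estimate of the spread, and serve as points of comparison. All animals descend from females of a single lake, and no treatment was given. SF, PF and the young males came from crowded beakers with several mothers, but the males were then grown on in a beaker of their own. Culture and sex thus cannot be told apart in M vs SF. The methods define males as within 12 h of birth, but also describe weeks of culture after the young males were picked, as the labelled age has it.

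*Daphnia* has no sex chromosomes. Males and females are produced by the same clone, and environmental cues such as crowding act on the mother to set the sex of her offspring. Sexual females form resting eggs that need fertilization and enclose them in an ephippium, a thickened part of the carapace. Males differ from them in gonads, antennules and the first pair of legs, and adults of both sexes go on moulting.

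The authors deposited an estimated number of reads for each unigene, a transcript cluster of the de novo assembly. The total was 23945594 and 19548162 in the M libraries and 22523969 and 20204902 in the SF libraries. All libraries list the same 11114 unigenes, and 10822 passed a filter on low counts and were tested. Levels below are counts per 1000000 (CPM) on edgeR's TMM scale, given per library or as mean ± SD of 2 libraries. They are not divided by transcript length, so levels are compared between libraries and not between genes. A unigene was called up-regulated or down-regulated in males at a Benjamini-Hochberg adjusted p under 0.05 with an absolute log2 fold change over 1, in edgeR's quasi-likelihood test on all 8 libraries. The files pair no ID with a gene name, and 0 IDs matched the *D. sinensis* gene table. Names are therefore best matches to other species, taken from the published list. Nothing in the sources says that the pools of a stage came from separate cultures, and p-values then measure only the spread between these pools.

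The M libraries were far closer to each other than the SF libraries. Among 6086 unigenes above 20 CPM, 0.131% differed more than 2-fold between M_1 and M_2, against 8.18% between SF_1 and SF_2. Divided by its degrees of freedom, the chi-square of M_1 against M_2 counts was 1.83 and that of SF_1 against SF_2 was 166, where sampling alone gives 1. The fit gave both stages the same spread for a unigene. Which SF library is typical of sexual females cannot be told from 2 libraries, so the males were also set against SF_1 and SF_2 alone. A lone SF library was then assumed to vary like the other stages, and the difference between the SF libraries no longer entered the spread.

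In M vs SF, 1101 unigenes were up-regulated and 1293 down-regulated, which is 10.2% and 11.9% of those tested. Most of the differences were moderate. Of the up-regulated unigenes, 783 changed 2 to 4-fold, 220 changed 4 to 8-fold, 76 changed 8 to 32-fold and 22 changed over 32-fold. The down-regulated unigenes reached further, with 917, 212, 118 and 46 in the same bands. Unigenes without reads in some library were not listed, so they are absent from these bands in both directions. Scaling affected the balance of directions. DESeq2 size factors in the same fit put the median log2 fold change of all unigenes at 0.06, against -0.06 with TMM, a shift of 0.13 that applied to every unigene alike. The up-regulated share of the calls was 56.2% with these factors, against 46% with TMM.

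All of the called unigenes had both M libraries on the same side of both SF libraries. Over all tested unigenes, both M libraries were above both SF libraries in 36.9% and below them in 41.6%. A 2-fold gap between the nearest M and SF libraries was found for 827 of the up-regulated (75.1%) and 966 of the down-regulated unigenes (74.7%). Over all tested unigenes, that gap was found for 8.1% with males higher and for 9.2% with males lower. A call already requires a fitted change over 2-fold beyond the spread. The excess of such gaps among the calls therefore follows from that selection. The up-regulated unigenes held 16.4% and 16.5% of the counts in the M libraries, against 5.52% in SF_1 and 5.06% in SF_2. The down-regulated unigenes held 6.35% and 6.32% in the M libraries, against 18.6% in SF_1 and 23.5% in SF_2. The direction of these shares follows from the choice of the unigenes by their calls. As whole animals were sequenced, more cells of a type and more RNA per cell cannot be told apart in these shares.

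**Figure D1:**
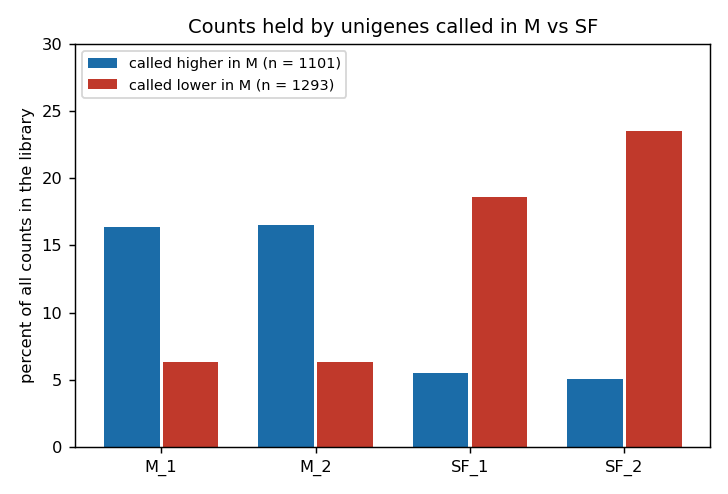
Percent of all counts in each library (y axis) that fell on the unigenes called higher in males (blue bars) or lower in males (red bars) in M vs SF, for M_1, M_2, SF_1 and SF_2. The blue bars reach 16.4% and 16.5% in males and at most 5.52% in sexual females, and the red bar is taller in SF_2 (23.5%) than in SF_1 (18.6%). The unigenes were chosen by their calls in these libraries, so the direction between males and sexual females follows from the choice.

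Against SF_1 alone, 939 unigenes were up-regulated in males (8.68% of those tested) and 1090 down-regulated (10.1%). Against SF_2 alone, 1441 were up-regulated (13.3%) and 1360 down-regulated (12.6%). These comparisons share the male libraries, so their counts are not independent. Among all tested unigenes, 651 were more than 2-fold higher in SF_1 than in SF_2 and 349 more than 2-fold lower. Within the up-regulated unigenes, 92 were more than 2-fold higher in SF_1 and 42 more than 2-fold higher in SF_2. Within the down-regulated unigenes the order was turned, with 9 more than 2-fold higher in SF_1 and 36 in SF_2.

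**Figure D2:**
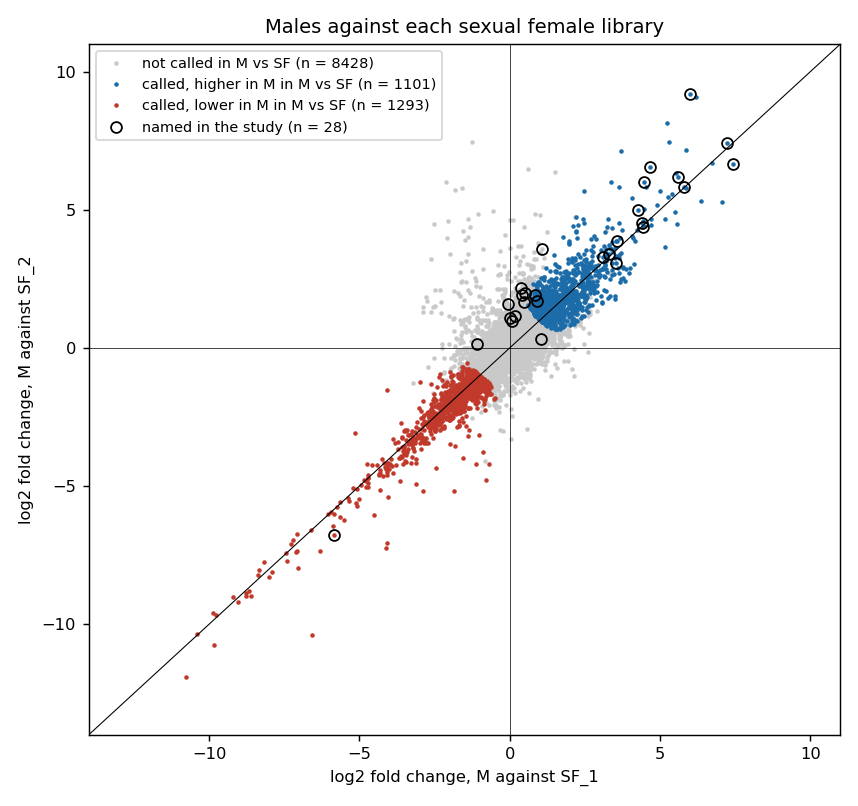
The log2 fold change of males against SF_1 (x axis) and against SF_2 (y axis) for the 10822 tested unigenes, coloured by the call in M vs SF, with open circles for the 28 unigenes named in the study and the line of equality in black. Both axes share the male libraries. Several circles lie near 0 on the x axis and above 1 on the y axis, which are the unigenes that were high in SF_1 and lower in SF_2.

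The study lists 36 male-biased unigenes by ID, and 28 of them are in the files and were tested. The other 8, all uncharacterized, were not analysed. No listed value was 0, so unigenes without reads in some library are absent from the counts below. The study took candidates from the top up-regulated unigenes of these libraries in M against JF, PF or SF. It then kept those with significantly higher qPCR levels in males than in each female stage. As the candidates came from these libraries, their direction here is not independent evidence. In M vs SF, 16 of the 28 were up-regulated, 1 was down-regulated and 11 were not called, against 10.2% and 11.9% of all unigenes. Their median log2 fold change was 2.52, against -0.06 over all unigenes. Set against SF_1 alone, the median was 2.10, against -0.06 over all unigenes. Set against SF_2 alone, the median was 3.18, against -0.04 over all unigenes. SF_1 was above SF_2 in 23 of the 28, against 49% of all unigenes.

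Sequence of these unigenes was at hand only as the study's qPCR primers. The pairs of the genes on which the comparison turns are shown 5′ to 3′, to fix which transcripts are meant: *Doublesex2* and laminin, which were low in both SF libraries, the trypsin-7 genes, and chitin synthase 2 and chitinase 5, for which the SF libraries disagreed. The qPCR values were not analysed.
Doublesex2 forward: atagcattgaatcctgtgaag
Doublesex2 reverse: cataccttgtgacctctga
laminin subunit gamma-3 forward: agaagacttaccatcgcata
laminin subunit gamma-3 reverse: tccatcgtgaagattgaga
trypsin-7-like protein forward: gtggtgtcgtagttctca
trypsin-7-like protein reverse: aatgtcaggtttgttcaatct
putative trypsin-7 forward: tactggctgaagatgtctc
putative trypsin-7 reverse: atggcgatgaacacaatg
putative trypsin-7, partial forward: gacacttgccaggttatatg
putative trypsin-7, partial reverse: tagccaaaggaggtgatac
chitin synthase 2 forward: ctccatcgcttcctgtta
chitin synthase 2 reverse: gcatcgttcgttcatcaa
chitinase 5 forward: atccgttatcttcttactcgta
chitinase 5 reverse: atcatcatagccaatccattg

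*Doublesex2* (Cluster-5789.12340) belongs to the DM-domain transcription factors that direct somatic sex differentiation in arthropods. It had 228 and 221 CPM in M_1 and M_2, against 4.03 and 3.91 CPM in SF_1 and SF_2. The groups were far apart and the SF libraries nearly equal. The level was 56.4-fold higher in males, with a log2 fold change of 5.82 (standard error, SE, 0.31, adjusted p = 9.9e-05 in edgeR, n = 2 libraries each). It was 5.8 against SF_1 and 5.84 against SF_2. The SF level rested on 87 and 82 counts. PF libraries had 3.45 and 5.90 CPM and JF libraries 5.65 and 4.06 CPM, so all female libraries lay in the same narrow range. As the study took the gene as a candidate from these libraries before its qPCR, the levels here are no independent check of the labelled sex.

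*Laminin gamma-3* (Cluster-5789.8159, matched to laminin subunit gamma-3) encodes a chain of the laminin trimers of basement membranes. It had 743 and 745 CPM in M_1 and M_2, against 86.3 and 75.8 CPM in SF_1 and SF_2, a log2 fold change of 3.20 (SE 0.12, adjusted p = 3.62e-05 in edgeR). Unlike *Doublesex2*, it was not uniform among females. SF was lowest, at 11.6% and 10.2% of the male mean, while PF averaged 17.4% and JF 36.2% of it.

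The trypsins and the serine protease cleave proteins, and trypsins are major digestive enzymes of the *Daphnia* gut. Of these 6 genes, 4 were up-regulated in M vs SF, 0 were down-regulated and 2 were not called, against 10.2% up-regulated and 11.9% down-regulated over all unigenes. The 3 trypsin-7 genes were far lower in sexual females than in males. The trypsin-7-like protein (Cluster-5789.9553) had 471 and 472 CPM in M_1 and M_2, against 7.41 CPM in SF_1 and 0.81 CPM in SF_2, where 17 counts were found. The log2 fold change was 6.84 (SE 1.18, adjusted p = 0.00665 in edgeR). Putative trypsin-7 (Cluster-5789.3677) had 1152 and 1195 CPM in the M libraries, against 53.2 and 18.3 CPM in SF_1 and SF_2 (log2 fold change 5.04, SE 0.61, adjusted p = 0.00185 in edgeR). The partial trypsin-7 (Cluster-5789.9554) had 248 and 259 CPM in the M libraries, against 9.87 and 2.72 CPM in SF_1 and SF_2 (log2 fold change 5.33, SE 0.69, adjusted p = 0.0025 in edgeR).

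In these 3 genes SF_1 was 2.91 to 9.16 times as high as SF_2, yet it reached at most 4.54% of the male mean. The males were therefore far above either SF library, with log2 fold changes of 4.46 to 5.99 against SF_1 and 6.00 to 9.17 against SF_2. Reads of near-identical family members can be divided between unigenes by the counting, which makes their single values uncertain. The trypsin-like isoform X1 (Cluster-5789.7668) had 203 and 192 CPM in the M libraries, against 16.6 and 13.7 CPM in SF_1 and SF_2. Here the SF libraries were close, and the log2 fold change was 3.71 (SE 0.38, adjusted p = 0.000933 in edgeR).

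The genes of chitin metabolism were higher in males than in SF_1, lower again in SF_2, and not called in M vs SF. Chitin synthase builds the chitin of the cuticle, and chitinases break down the old cuticle at a moult. Chitin synthase 2 (Cluster-5789.11830) had 520 and 520 CPM in M_1 and M_2, against 388 CPM in SF_1 and 140 CPM in SF_2. Chitinase 8 (Cluster-5789.7417) had 1028 and 997 CPM in the M libraries, against 705 and 252 CPM in SF_1 and SF_2. Chitinase 5 (Cluster-5789.5191) had 1147 and 1140 CPM in the M libraries, against 538 and 96.3 CPM in SF_1 and SF_2. In each of the 3 genes both M libraries were above both SF libraries. The log2 fold changes were 0.98 for chitin synthase 2 (SE 0.44, adjusted p = 0.12 in edgeR), 1.08 for chitinase 8 (SE 0.45, adjusted p = 0.102 in edgeR) and 1.85 for chitinase 5 (SE 0.73, adjusted p = 0.0924 in edgeR). All 3 standard errors were larger than those of *Doublesex2* and laminin.

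Against SF_2 alone, all 3 genes were called, with log2 fold changes of 1.90, 2.00 and 3.57 for chitin synthase 2, chitinase 8 and chitinase 5. Against SF_1 alone these were 0.42, 0.52 and 1.09, and only chitinase 5 was called. The serine protease ami-like gene (Cluster-5789.2039) behaved alike in level, with 522 and 517 CPM in the M libraries, against 404 CPM in SF_1 and 116 CPM in SF_2. Trypsin alpha-like (Cluster-5789.11655) had 742 and 751 CPM in the M libraries, against 541 and 239 CPM in SF_1 and SF_2. Neither passed the test in M vs SF (changes of 1.00 and 0.94 on the log2 scale, adjusted p = 0.18 and 0.0723 in edgeR), and both were called against SF_2 alone but not against SF_1 alone.

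SF_1 was below both M libraries and above all PF and JF libraries in these 5 genes. It reached 47.1% to 77.8% of the male mean and SF_2 8.42% to 32%, while PF reached 0.959% to 4.1% and JF 5.15% to 16.6%. SF_2 lay above JF in 4 of the 5, but in chitinase 5 it was below JF, at 8.42% against 16.6% of the male mean. The 3 chitin genes summed to 2690 and 2660 CPM in the M libraries, against 1630 and 488 CPM in SF_1 and SF_2, and to 34.5 and 28.9 CPM in PF. The lowest SF library was thus above both PF libraries in all 5 genes. DESeq2 on all 8 libraries called chitinase 5, chitinase 8, chitin synthase 2 and trypsin alpha-like in M vs SF, but not the serine protease.

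**Figure D3:**
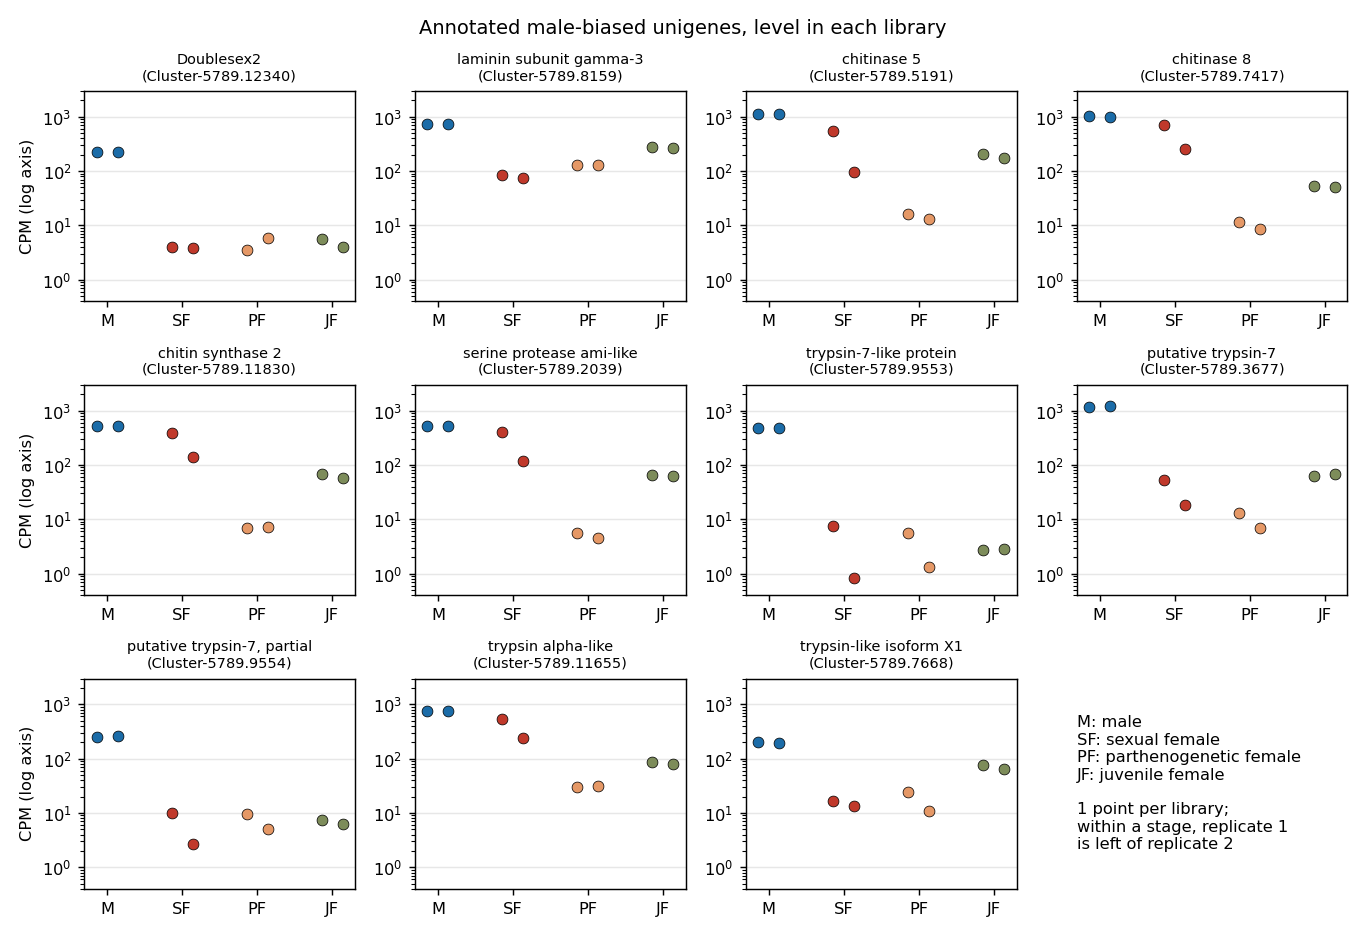
Level in CPM (log axis) of the 11 annotated unigenes in each library, 1 panel per gene, with M and SF on the left and PF and JF on the right and 1 point per library. In *Doublesex2*, laminin and the trypsin-like isoform X1 the SF points lie close together far below the M points, while in the chitin genes, the serine protease and trypsin alpha-like the SF points are 2.27 to 5.59 times apart and the higher one is at 47.1% to 77.8% of the male mean.

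The uncharacterized unigenes of the list have no known role. Of the 25, 17 were tested, of which 10 were up-regulated in M vs SF, 1 was down-regulated and 6 were not called, against 10.2% up-regulated and 11.9% down-regulated over all unigenes. In 8 of them SF was low, with males over 8-fold higher. The highest change was that of Cluster-5789.9162, which had 97.3 and 100.3 CPM in M_1 and M_2, against 0.65 and 0.57 CPM in SF_1 and SF_2, from 14 and 12 counts (log2 fold change 7.32, SE 0.24, adjusted p = 3.27e-05 in edgeR). Cluster-5789.9163 followed with 449 and 452 CPM in the M libraries, against 2.64 and 4.48 CPM in SF_1 and SF_2. Cluster-5789.697 had 109 and 119 CPM in the M libraries, against 2.36 and 1.57 CPM in SF_1 and SF_2. Cluster-5789.11701 had 1416 and 1408 CPM in the M libraries, against 73.5 and 44.3 CPM in SF_1 and SF_2.

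The other 4 of these 8 (Cluster-5789.2177, Cluster-5789.6049, Cluster-5789.1615 and Cluster-5789.11865) had log2 fold changes from 3.28 to 4.47. None of the 8 lost its call with either SF library alone, and SF_1 was the lower SF library in 3 of them.

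In the other 9 uncharacterized unigenes each SF library had at least 26.3% of the male mean. Cluster-5789.6490 had 1639 and 1655 CPM in the M libraries, against 1712 CPM in SF_1 and 551 CPM in SF_2. The males thus lay just below SF_1 and well above SF_2, and the log2 fold change was 0.54 (SE 0.48, adjusted p = 0.401 in edgeR). Cluster-5789.2216 had 591 and 595 CPM in the M libraries, against 593 and 281 CPM in SF_1 and SF_2. Cluster-5789.1931 had 914 and 913 CPM in the M libraries, against 864 and 462 CPM in SF_1 and SF_2. Cluster-5789.1251 had 711 and 718 CPM in the M libraries, against 631 and 317 CPM in SF_1 and SF_2. None of these 4 was called, and in all of them SF_2 was 33.4% to 50.5% of the male mean.

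Cluster-5789.11046 and Cluster-5789.11774 were up-regulated by 1.24 and 1.28 on the log2 scale (adjusted p = 0.0191 and 0.0303 in edgeR). Their calls were lost with SF_1 alone, where the log2 fold changes were 0.89 and 0.83, and also when either male library was left out, where they were 1.21 to 1.27 for Cluster-5789.11046 and 1.25 to 1.30 for Cluster-5789.11774. The call of Cluster-5789.11774 was also lost without either JF library, at an unchanged log2 fold change of 1.28. Cluster-5789.11669 was the reverse, higher in SF_2 than in SF_1, with 852 and 849 CPM in the M libraries, against 415 CPM in SF_1 and 675 CPM in SF_2 (log2 fold change 0.64, adjusted p = 0.145 in edgeR). Cluster-5789.11654 had 181 and 179 CPM in the M libraries, against 384 and 165 CPM in SF_1 and SF_2, so the males lay within the range of SF (log2 fold change -0.61, adjusted p = 0.511 in edgeR).

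**Figure D4:**
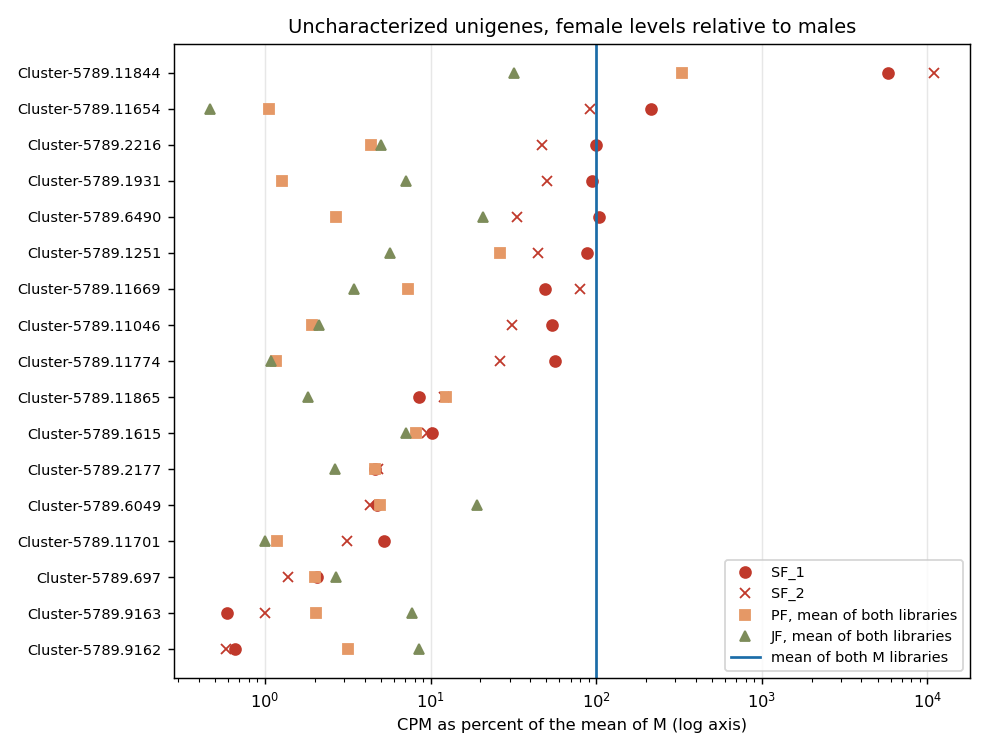
Level of the 17 tested uncharacterized unigenes in SF_1 (red circle), SF_2 (red cross), PF (square) and JF (triangle) as percent of the male mean (log axis, blue line at 100%), ordered by the mean of both SF libraries. The lowest 8 have both SF marks at or below 12%, and the others have SF marks between 26.3% and 213% of the males, except Cluster-5789.11844, which was far higher in SF.

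Cluster-5789.11844 is on the list of male-biased unigenes, for which the study reports higher qPCR levels in males than in each female stage. The qPCR values were not analysed, and in these libraries the unigene was lower in males than in sexual females. Its level was 32 and 31.4 CPM in M_1 and M_2, against 1832 CPM in SF_1 and 3506 CPM in SF_2, a log2 fold change of -6.39 (SE 1.05, adjusted p = 0.00558 in edgeR). The call was lost when either male library was left out (adjusted p = 0.051 and 0.0521 in edgeR), while the log2 fold change was -6.41 and -6.38. The PF libraries differed widely, with 27.2 CPM in PF_1 and 182 CPM in PF_2, and JF had 8.11 and 12.1 CPM. The unigene was thus highest in sexual females in these libraries, and higher in SF_2 than in SF_1. Why the libraries and the reported qPCR differ was not tested.

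Among unigenes without a name, the largest gap between the nearest M and SF libraries was taken to choose 2 examples in each direction, so these gaps are descriptions. Cluster-5789.8859 had 431 and 433 CPM in the M libraries, against 4.08 and 4.19 CPM in SF_1 and SF_2. Cluster-5789.9084 had 1721 and 1749 CPM in the M libraries, against 23.5 CPM in SF_1 and 3.19 CPM in SF_2, and so repeats the gap between SF_1 and SF_2 seen in the trypsin-7 genes. In the other direction, Cluster-5789.199 had 1.08 and 0.79 CPM in the M libraries, against 1644 CPM in SF_1 and 3638 CPM in SF_2 (log2 fold change -11.44, adjusted p = 0.0214 in edgeR). It had 0.61 CPM in PF_1 but 188 CPM in PF_2, the same split between the PF libraries as in Cluster-5789.11844. Its call was lost with SF_1 alone and without either male library, with log2 fold changes between -11.69 and -10.76. It was also lost with the male libraries summed and with a fold change threshold inside the test (edgeR's glmTreat). Over all 20 alternatives, DESeq2 included, the log2 fold change lay between -11.9 and -10.76. Cluster-5789.4224 was at 0.35 and 0.37 CPM in the M libraries, from 8.05 and 7 estimated counts, against 495 and 478 CPM in SF_1 and SF_2. It was as high in PF, with 790 and 496 CPM.

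The down-regulated unigenes with changes over 32-fold differed in how the mean level of PF stood to that of SF. Of the 46, PF was within 2-fold of SF in 28 and over 8-fold below SF in 12. SF_2 was the higher SF library in 30 of the 46. It was also the higher in most of all down-regulated unigenes, as SF_1 was the higher in only 28.1% of them. Over all tested unigenes, SF_1 was the higher in 49%. The tilt to SF_2 was thus not particular to the 46. PF_2 was more than 2-fold above PF_1 in 6 and the reverse was seen in 0. The call counts hardly moved without PF_2, with 1123 up-regulated and 1297 down-regulated unigenes.

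The difference between SF_1 and SF_2 was then read against ratios that use no SF library. In the 529 unigenes that were over 8-fold higher in M than in PF, the median log2 ratio of SF_1 to SF_2 was 0.71 (quartiles 0.00 and 1.18), and SF_1 was the higher in 75%. It was 0.15 in the 1830 unigenes that were 2 to 8-fold higher in M, -0.01 in the 6605 within 2-fold, -0.13 in the 1696 that were 2 to 8-fold lower and -0.16 in the 162 over 8-fold lower. At the low end the other replicates differed as much, with medians of 0.21 for PF_1 to PF_2 and 0.14 for JF_1 to JF_2 in the class over 8-fold lower. With JF in place of PF, the 339 unigenes over 8-fold higher in M had a median of 0.87 with SF_1 higher in 79.6%, while the 81 over 8-fold lower had a median of 0.01. In the highest class against PF, the medians were 0.13 and 0.27 for the ratios of the PF and of the JF replicates, and 0.00 for that of the M replicates.

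These medians describe unigenes of the same libraries, which are not independent. In the 235 unigenes over 8-fold higher in M than in both PF and JF, the median log2 fold change of males was 0.83 against SF_1 and 1.77 against SF_2. Of these 235, 138 were within 2-fold of the males in SF_1 and 32 in SF_2. In M vs SF, 113 of them were called up-regulated, against 10.2% of all tested unigenes. The same M libraries enter the choice of the 235 and the calls, so an excess over that share is built in.

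**Figure D5:**
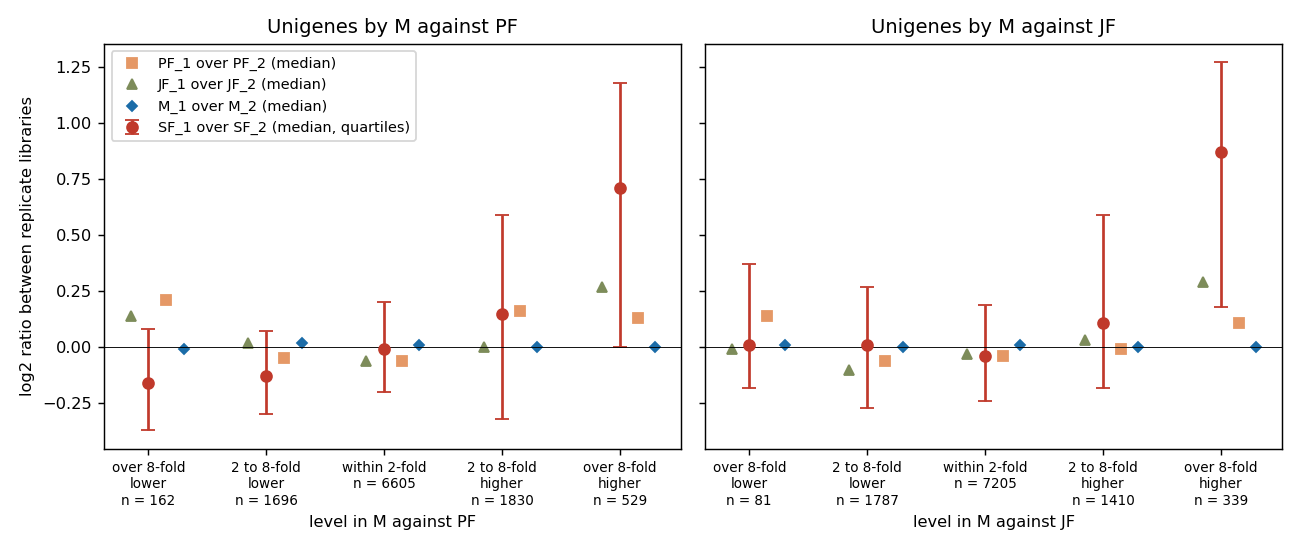
Median log2 ratio between replicate libraries (y axis) for unigenes binned by their level in M against PF (left) or JF (right), with quartile bars for SF_1 over SF_2 and medians only for the PF, JF and M replicates. The SF ratio is near 0 for unigenes within 2-fold and reaches 0.71 and 0.87 in the highest bins, above the ratio of the other replicates there.

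PF and JF took different places between males and sexual females. Of the 1101 up-regulated unigenes, PF was nearer to SF than to M on the log2 scale in 876 (79.6%) and JF in 421 (38.2%). Of the 1293 down-regulated unigenes, PF was nearer to SF in 1119 (86.5%) and JF in 494 (38.2%). Over all tested unigenes these shares were 69.2% for PF and 43.9% for JF. The commonest pattern in both directions had PF on the side of SF and JF on the side of the males, with 505 up-regulated (45.9%) and 689 down-regulated unigenes (53.3%), against 38.3% of all tested unigenes. Both PF and JF were nearer to SF in 371 up-regulated (33.7%) and 430 down-regulated unigenes (33.3%), which was close to the 30.9% over all unigenes. Both were nearer to the males in 175 up-regulated (15.9%) and 110 down-regulated unigenes (8.51%), against 17.8% over all unigenes, and Cluster-5789.11844 was one of these 110.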

How the data were processed

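Libraries of poly-A RNA were sequenced as paired ends. The authors discarded adapter-containing, ambiguous and low-quality reads and assembled the rest with Trinity. Values were deposited as read counts per the file headers, and since some are fractional they are estimated counts that the authors had not scaled. The sources used here name neither the aligner nor the counter. No listed value was 0, so unigenes without reads in some library were not analysed here. Counts were rounded and tested with edgeR 4.0.16 (limma 3.58.1, R 4.3.3): TMM scaling, edgeR's filter by stage, robust quasi-likelihood fit with stage as factor over all 8 libraries (4 residual degrees of freedom, 3 with 1 library left out). The standard error is the log2 fold change divided by the square root of F. The thresholds are those of the study. For SF_1 or SF_2 alone, the other was left out, with unigenes and scaling kept. DESeq2 1.42.0 was an alternative. Libraries held 17172891 to 27160267 counts. Between replicate pools, the chi-square per degree of freedom was 61.6 to 166 in the female stages and 1.83 in males. The spread between the pools of females thus exceeded counting error, while that between the pools of males was near it. Named were the listed unigenes of the study and at most 2 further IDs per direction, called, above 10 CPM in the higher group and with the largest gap between the nearest M and SF libraries. Members, lists and tests were chosen with earlier results of these data known. The test was also run on simulated counts that gave all stages the same spread. That run cannot check the test under the unequal spread of the M and SF libraries. The qPCR values and GO terms were not analysed here.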

Additional observations from a re-analysis of the deposited data

How the results depend on the processing

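In M vs SF, 1101 unigenes were up-regulated and 1293 down-regulated. The counts moved by more than 1.5 times only with other thresholds: the adjusted p alone gave 1968 and 2618, and a fold change threshold inside the test (edgeR's glmTreat) gave 402 and 550. With each library left out in turn, the up-regulated counts lay between 786 and 1441 and the down-regulated counts between 972 and 1360, the lowest without a male library and the highest without SF_1. Summing the male libraries gave 805 and 998, and DESeq2 on all 8 libraries gave 1473 and 1058. The replicate number as a block gave 1091 and 1257. The labels number the replicates but tie no number to a shared culture, so the samples were not treated as paired. The deviations of M and SF libraries with the same number had a correlation of -0.0179. As M_1 and M_2 differed little beyond sampling, this value cannot show whether the libraries were paired. Between the female stages, such correlations ran from -0.071 (PF and JF) to 0.164 (SF and JF). Over 20 alternatives, 4 of the 32 named unigenes lost their call in at least 1 of them (Cluster-5789.11844, Cluster-5789.11046, Cluster-5789.11774 and Cluster-5789.199) and 8 gained a call, all 8 with SF_2 alone, 4 of them (chitinase 5, chitinase 8, chitin synthase 2 and trypsin alpha-like) also in DESeq2 on all 8 libraries and chitinase 5 also with SF_1 alone. The sign changed in 3 uncalled unigenes: the log2 fold change of Cluster-5789.11654 was -1.09 against SF_1 alone and 0.13 against SF_2 alone, that of Cluster-5789.6490 was -0.06 and 1.58, and that of Cluster-5789.2216 was -0.00098 and 1.08. The cause was not tested.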

Other observations

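Of the tested unigenes, 624 carried the ID of an assembly cluster other than the main one. Of these, 128 were called higher (20.5%) and 66 lower (10.6%) in males than in sexual females, against 9.54% and 12% of the 10198 unigenes of the main cluster. Their median level was 3.25 CPM, against 30.8 CPM in the main cluster, and their median log2 fold change was 0.05, with 0.15 against SF_1 and 0.15 against SF_2 alone. They held 0.411% and 0.41% of the counts in M_1 and M_2, against 0.408% and 0.42% in SF_1 and SF_2. The source of these transcripts was not tested.

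In 24 of the 1293 down-regulated unigenes, both male libraries had at most 3 estimated counts. For these a fold change depends on the few male reads.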
